A study of Mus musculus with 8 samples.

Results

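Small RNA pathways act through a short chain of proteins, and 9 mouse genes of that chain were followed here in oocytes: Drosha, Dgcr8, Xpo5, Dicer1, Tarbp2, Ago1, Ago2, Ago3 and Ago4. They were found by gene symbol alone. A probe set, the group of short probes by which an Affymetrix array measures a transcript, was taken where its annotation gave exactly 1 of these symbols, and 25 of the 45101 probe sets of the array did so. In the nucleus, Drosha and its RNA-binding partner Dgcr8 cut microRNA precursors out of longer transcripts, and Xpo5 carries them to the cytoplasm. There Dicer1, helped by Tarbp2, cuts precursors or long double-stranded RNA into small RNAs, which guide the Argonaute proteins Ago1 to Ago4 to matching messages. In mouse oocytes Dicer1 is known above all for making endogenous small interfering RNAs, a step that does not need Drosha or Dgcr8, and these silence retrotransposon transcripts, whereas microRNAs are known to repress little there.

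Total RNA came from germinal vesicle (GV) oocytes, which are arrested in meiotic prophase with an intact nucleus. Of 8 single-colour arrays, 4 held untreated GV oocytes and 4 held GV oocytes kept for 48 h with milrinone, a drug that blocks the phosphodiesterase PDE3A and so holds oocytes at the GV stage. Each array received 15 µg of biotin-labelled cRNA. The labels give neither strain nor age and no culture without the drug, so drug, culture and time cannot be told apart. They also do not say whether replicates came from separate animals, so p-values rest on a spread between samples that may be technical. In such bulk samples fewer cells of a type and less RNA per cell cannot be told apart.

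A cell of the deposited table either holds an intensity (the probe set is then called listed on that array) or is empty, and an empty cell sets no upper limit. Oocyte markers were present throughout: 15 of 15 probe sets of 12 marker genes were listed on every array, with summed intensities of 133258 to 156145 in untreated and 136466 to 146511 in milrinone samples. Among them the oocyte growth factor gene Gdf9 lay between 20134 and 22872 and the zona pellucida gene Zp3 between 15646 and 18438. Of 36 probe sets of cumulus, granulosa and theca cell markers, the untreated arrays listed 21 to 28, with sums of 19938 to 86624, and the milrinone arrays 11 to 17, with sums of 2861 to 3816. The highest sum was that of untreated 1. Of 17 probe sets of blood, stromal and endothelial markers, 8 to 12 were listed in untreated samples (sums of 1389 to 8100) and 3 to 4 in milrinone samples (569 to 734). Amh and Pecam1, with 1 probe set each, were empty on all 8 arrays, while other markers of these lists were not. Among those, Inha had 1698 to 8512 on the untreated arrays and 106 and 289 on milrinone 1 and 2. Kdr had 355 to 555 over all 8 arrays. Untreated 1 resembled the other arrays least: its median correlation with them was 0.930, where that of each other array was 0.966 or higher. The 3′ to 5′ signal ratio of the Actb control, read as a sign of RNA quality, was 6.87 to 13.1 without and 11.6 to 20.4 with milrinone, and that of the Gapdh control was 6.23 to 7.68 without and 6.09 to 8.25 with milrinone. Their part in the results was not tested. The brightest probe set of Pde3a had a value on 1 untreated array, 174, and values of 236 to 297 on 3 milrinone arrays.

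None of the 9 genes passed the test for a difference between untreated and milrinone samples. Of the 25 probe sets, 22 had a value on at least 1 array and 17, standing for 8 genes, had values on at least 3 arrays of both groups and could be tested. Of these 17, 0 passed limma's test at an adjusted p under 0.05, where 0.117% of all 16288 tested probe sets passed, all of them lower in milrinone. At an unadjusted p under 0.05 there were 2 of 17 (background 9.63%), 1 of Ago3 above (background 5.62%) and 1 of Ago2 below (background 4%). Every log2 difference here is milrinone minus untreated on the scale of log2(intensity + 16), on which changes of dim probe sets are understated. For 13 of the 17 the 95% interval lay inside a 2-fold change in both directions, where 14718 of all 16288 tested probe sets had such an interval. The differences of the 17 ran from -0.98 to 0.51. The other 4 intervals, those of Ago1, of 1 Ago2 and of 2 Ago3 probe sets, reached past 2-fold on 1 side.

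The median difference of the 17 was 0.15, with 12 above 0 and 5 below, beside a median of 0.06 and 62% above 0 over all tested probe sets. Quantile normalization moved these medians to -0.08 and -0.13, and centring the arrays on ribosomal proteins moved them to 0.32 and 0.23. In 3 of the 17, all higher in milrinone, the listed values of the groups did not overlap on the deposited scale, where 5.06% of all tested probe sets were so higher and 2.74% lower. The 3 belonged to Ago3, Drosha and Tarbp2.

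**Figure D1:**
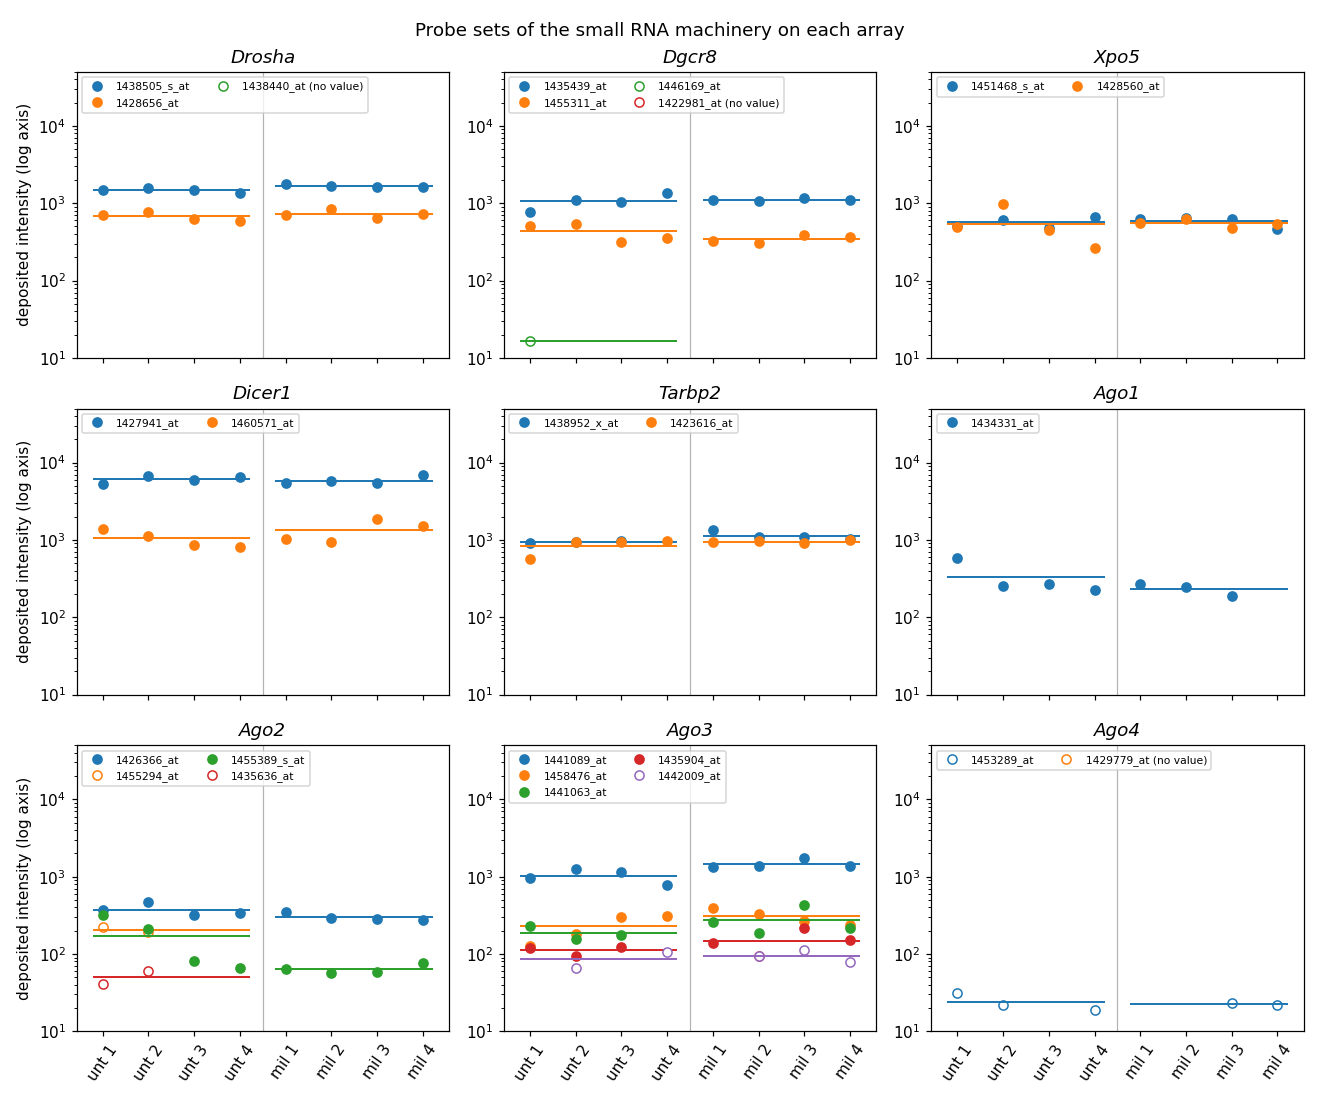
Deposited intensity (log axis) of every probe set of the 9 genes on the 4 untreated (unt) and 4 milrinone (mil) arrays. Filled points are tested probe sets, open points are listed on too few arrays, bars are group means, and empty cells have no point. The Dicer1 probe set at 5294 to 6846 varies little over the 8 arrays, 1 Ago2 probe set is high on untreated 1 and 2, and Ago4 is listed on 5 arrays at 18.7 to 31.2.

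Drosha, the nuclear RNase III enzyme, had 3 probe sets. The brightest, 1438505_s_at, had 1476, 1554, 1473 and 1370 in untreated replicates 1 to 4 and 1753, 1675, 1617 and 1626 in milrinone replicates 1 to 4. All 4 milrinone values thus lay above all 4 untreated values (exact permutation p = 0.0286, two-sided, the smallest that 4 against 4 arrays can give). The difference was 0.18 (SE 0.10), a 1.13-fold ratio with a 95% interval of 0.968 to 1.33, and did not pass (limma adjusted p = 0.562). With quantile normalization it was -0.0025. The second probe set, 1428656_at, lay between 593 and 774 in untreated samples and between 638 and 849 in milrinone samples, and its groups overlapped (difference 0.11, interval -0.21 to 0.43, or -0.12 with quantile normalization). The remaining one was empty on all 8 arrays.

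Dgcr8, the double-stranded RNA-binding partner of Drosha, gave probe sets that differed in sign. Probe set 1435439_at had 762, 1107, 1047 and 1354 in untreated and 1094, 1055, 1186 and 1092 in milrinone samples. Its milrinone values lay inside the untreated range, with SDs of 55.4 and 243 (n = 4 each), and the difference was 0.08 (-0.30 to 0.45), turning to -0.07 without untreated 1, the lowest array, and to -0.13 with quantile normalization. Probe set 1455311_at, annotated to the same cDNA accession, had 515, 540, 312 and 359 in untreated and 329, 302, 393 and 369 in milrinone samples. Untreated 1 and 2 lay above the other 6 arrays, and the difference was -0.27 (-0.71 to 0.17, limma adjusted p = 0.634). It was -0.17 without untreated 1, -0.15 without untreated 2, -0.41 without untreated 3 and -0.08 with array weights, and -0.10 and -0.51 with ribosomal protein centring and quantile normalization. A dimmer probe set was listed on untreated 1 alone, at 16.3, and another was empty throughout.

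Xpo5, the export receptor that binds precursors together with Ran, showed no shift that its spread could separate from 0. Probe set 1451468_s_at averaged 565 ± 84.1 (SD, n = 4) without and 591 ± 81.4 (SD, n = 4) with milrinone, a difference of 0.06 (-0.30 to 0.43) that was -0.17 with quantile normalization. Probe set 1428560_at had 499, 978, 445 and 262 in untreated and 549, 632, 476 and 541 in milrinone samples. Untreated 2 was the highest and untreated 4 the lowest of the 8 arrays. The difference of 0.15 (-0.55 to 0.86) became 0.48 without untreated 2 and -0.14 without untreated 4.

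Dicer1, the cytoplasmic RNase III enzyme at the centre of both pathways, did not pass on either of its 2 probe sets. The bright one, 1427941_at, had 5294, 6709, 5876 and 6601 in untreated and 5400, 5723, 5470 and 6846 in milrinone samples. The groups overlapped almost fully, and the ratio was 0.957, with a 95% interval of 0.814 to 1.13 (difference -0.06, limma adjusted p = 0.844). Centring on ribosomal proteins turned the difference to 0.11. The dimmer probe set, 1460571_at, had 1380, 1140, 870 and 812 in untreated and 1036, 930, 1858 and 1536 in milrinone samples. Milrinone 3 and 4 were the highest arrays and the groups overlapped, with a difference of 0.32 (-0.22 to 0.86, limma adjusted p = 0.640) that was 0.15 without milrinone 3, 0.21 without untreated 4 and 0.12 with quantile normalization. Mouse oocytes are known to use a short form of Dicer1 that starts inside an intron, in a retrotransposon sequence, and the annotation used here does not say which form either probe set measures.

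Tarbp2, the double-stranded RNA-binding partner of Dicer1, did not pass on either of 2 probe sets. Probe set 1438952_x_at, of a class that can also bind related transcripts, had 927, 929 and 969 in untreated replicates 1 to 3, was empty on untreated 4, and had 1342, 1090, 1099 and 1016 in milrinone samples. The listed groups did not overlap, and the difference was 0.26 (-0.06 to 0.58, limma adjusted p = 0.558, with the empty array left out of the fit). Probe set 1423616_at had 568 on untreated 1, while the remaining untreated arrays held 929 to 962 and the milrinone arrays 901 to 987. Its difference of 0.20 (-0.20 to 0.59) was 0.02 without untreated 1. With quantile normalization both differences lay at or just below 0, at -0.01 and -0.02.

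**Figure D2:**
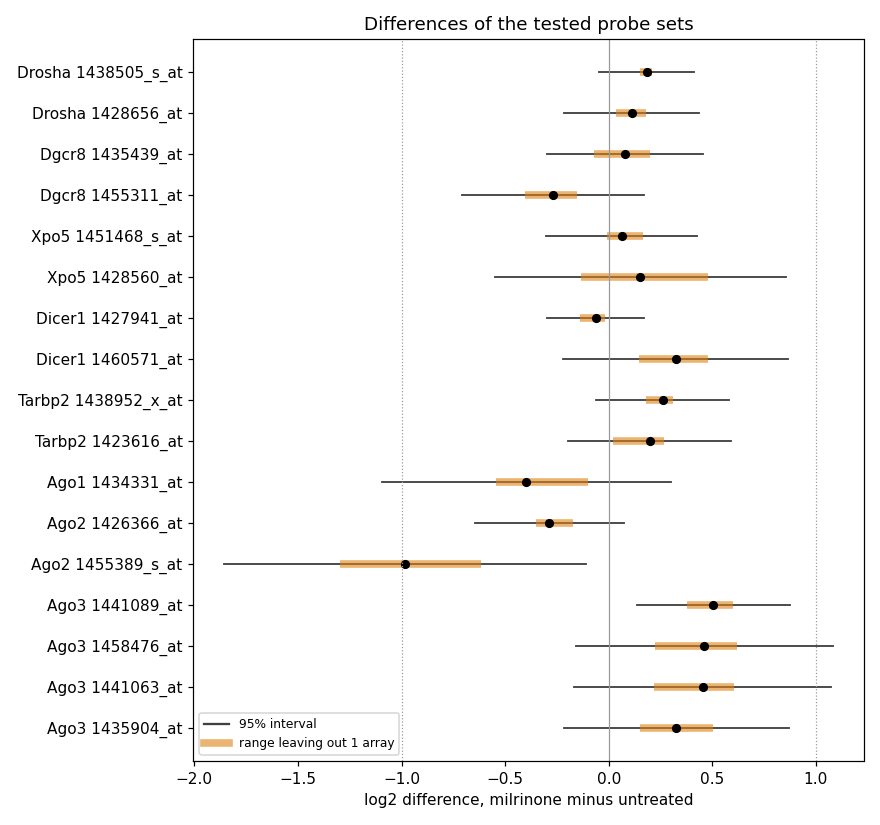
Log2 differences (milrinone minus untreated, horizontal axis) of the 17 tested probe sets, with 95% intervals from limma (thin lines) and the range of the difference when 1 array at a time is left out (thick bars). Dotted lines mark a 2-fold change. The 4 Ago3 probe sets lie to the right of 0 at 0.33 to 0.51 and the 2 Ago2 and 1 Ago1 probe sets to the left, and 2 intervals leave out 0.

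The 4 Argonaute genes differed in how well the arrays measured them. Ago1, Ago3 and Ago4 are direct neighbours in the RefSeq annotation of GRCm38.p6, in the order Ago3, Ago1, Ago4 on chromosome 4, while Ago2 lies elsewhere. The 250 bases before the start of each of the 3 neighbours are shown. Of these genes of 1 family and 1 locus, Ago4 was listed in a smaller share of cells than Ago3 and Ago1. The listed cells were 35 of 40 for Ago3 (5 probe sets on 8 arrays), 7 of 8 for Ago1 and 5 of 16 for Ago4. Capitals mark GGGCGG or its reverse complement, the GC box bound by Sp1-type factors, and longer capital runs hold overlapping matches. The sequences, from RefSeq, run 5′ to 3′ on the minus strand at chr4:126429543-126429792 (Ago3), chr4:126468632-126468881 (Ago1, the more upstream of its 2 listed starts) and chr4:126533459-126533708 (Ago4).
Ago3: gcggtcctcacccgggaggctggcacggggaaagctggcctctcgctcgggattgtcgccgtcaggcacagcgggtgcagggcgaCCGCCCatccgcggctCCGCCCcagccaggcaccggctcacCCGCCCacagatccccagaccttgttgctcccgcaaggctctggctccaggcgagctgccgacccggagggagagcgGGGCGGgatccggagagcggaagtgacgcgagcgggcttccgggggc
Ago1: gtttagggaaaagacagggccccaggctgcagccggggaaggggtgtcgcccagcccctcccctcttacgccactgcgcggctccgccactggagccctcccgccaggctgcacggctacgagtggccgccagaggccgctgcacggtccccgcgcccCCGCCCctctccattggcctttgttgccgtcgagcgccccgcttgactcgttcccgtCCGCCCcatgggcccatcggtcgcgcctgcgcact
Ago4: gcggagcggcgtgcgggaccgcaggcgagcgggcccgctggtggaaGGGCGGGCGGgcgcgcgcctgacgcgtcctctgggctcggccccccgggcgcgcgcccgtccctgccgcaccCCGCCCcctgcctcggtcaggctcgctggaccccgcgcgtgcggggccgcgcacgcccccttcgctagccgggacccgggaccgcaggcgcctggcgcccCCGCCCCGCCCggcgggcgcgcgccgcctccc
These stretches hold 4, 2 and 5 matches, and their G+C content is 73.6%, 72.4% and 85.6%. Of the 8 member genes with such a window (none was matched for Ago2), 7 held GGGCGG, 5 held CCAAT and 0 held TATAAA on either strand, against 33.0%, 33.8% and 12.3% of 32536 windows of all genes. The 2 sides are counted unlike: members at their most upstream start only, all genes at every start with a distinct window. The G+C content of the 8 ran from 60.0% to 85.6%, where 28.2% of all windows lie at or above 60.0%. These are descriptions of letters only, and the arrays did not measure transcription from these starts.

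Ago3 had the highest difference of the 17 probe sets, but it did not pass. Its brightest probe set, 1441089_at, had 963, 1239, 1156 and 780 in untreated and 1342, 1388, 1754 and 1363 in milrinone samples. All milrinone values lay above all untreated values (exact permutation p = 0.0286, two-sided). The ratio was 1.42, with a 95% interval of 1.10 to 1.84 (difference 0.51, SE 0.17), and the adjusted p was 0.460 over all tested probe sets (limma), in a range of 0.252 to 0.864 over 20 alternative settings. The difference stayed between 0.38 and 0.60 when 1 array at a time was left out.

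The other Ago3 probe sets also lay above 0, without passing. Probe set 1441063_at had 227, 157 and 176 in untreated replicates 1 to 3 and 258, 185, 433 and 214 in milrinone samples, a difference of 0.45 (-0.17 to 1.07). Probe set 1435904_at had 120, 94.5 and 122 in untreated replicates 1 to 3 and 138, 94.3, 214 and 151 in milrinone samples, a difference of 0.33 (-0.22 to 0.87). Both were empty on untreated 4, which was the lowest array of 1441089_at, and all 3 of these probe sets were highest on milrinone 3, as was the dimmer Dicer1 probe set. Without milrinone 3 the differences were 0.42, 0.22 and 0.15 for 1441089_at, 1441063_at and 1435904_at. Probe set 1458476_at followed other arrays, with 125, 179, 305 and 306 in untreated and 399, 325, 267 and 240 in milrinone samples. Untreated 1 and 2 were its lowest arrays, milrinone 1 its highest, and its difference of 0.46 (-0.16 to 1.08) was 0.22 without untreated 1. With quantile normalization the differences of 1441089_at, 1441063_at, 1435904_at and 1458476_at were 0.30, 0.14, 0.04 and 0.22. The remaining probe set was listed on 2 untreated and 3 milrinone arrays at 65.6 to 113 and was not tested.

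Ago2, the only mouse Argonaute known to cut its target RNA efficiently, had 4 probe sets, of which 2 were tested and 0 passed. The dimmer tested one, 1455389_s_at, had 322 and 213 on untreated 1 and 2, 80.6 and 66.2 on untreated 3 and 4, and 64.6, 56.8, 58.5 and 75.6 in milrinone samples. Untreated 1 and 2 stood above the other 6 arrays, and untreated 4 lay inside the milrinone range. The difference was -0.98 (SE 0.39, 95% interval -1.86 to -0.11, limma adjusted p = 0.495, exact permutation p = 0.0571), or -0.62 without untreated 1. Of the 2 remaining dim probe sets, 1455294_at had 223 and 191 and 1435636_at had 41.2 and 59.8 on the same 2 untreated arrays, and both were empty on the other 6. The latter is annotated to the same cDNA accession as 1455389_s_at, so they are not independent of each other.

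The brightest Ago2 probe set, 1426366_at, had 369, 473, 321 and 338 in untreated and 347, 296, 286 and 279 in milrinone samples. Untreated 2 was highest, the groups overlapped, and the difference was -0.29 (-0.65 to 0.07, limma adjusted p = 0.562). It was -0.17 without untreated 2, -0.12 with ribosomal protein centring and -0.53 with quantile normalization. Ago2 is expressed in somatic cells too, and the sums of the cumulus, granulosa and theca markers were 86624 and 19938 on untreated 1 and 2 and 22483 and 23198 on untreated 3 and 4. The part of such RNA in the Ago2 values was not tested.

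**Figure D3:**
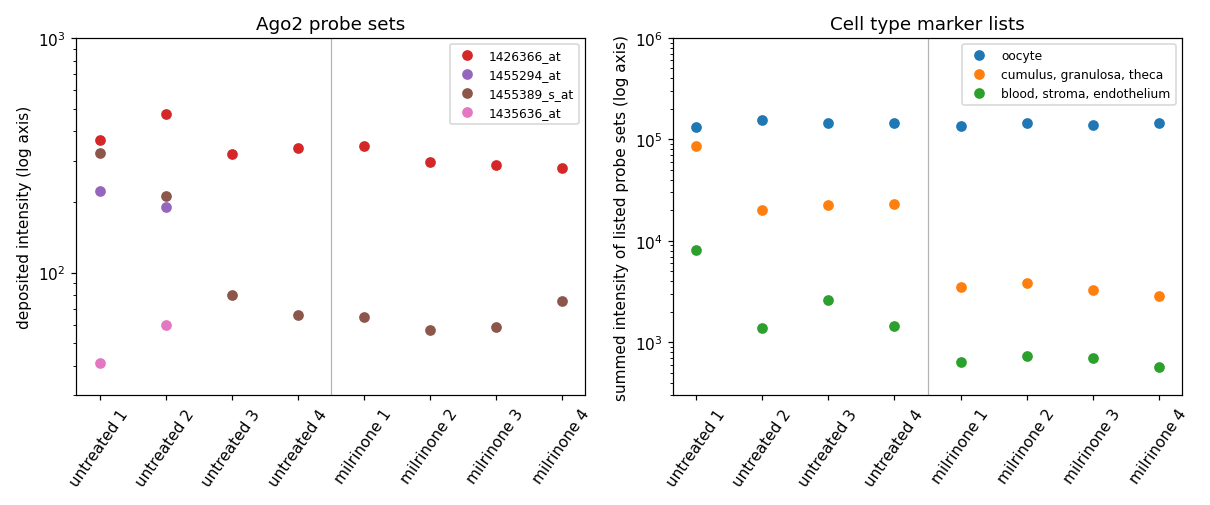
Left, deposited intensity (log axis) of the 4 Ago2 probe sets on each array. Right, summed intensity (log axis) of the listed probe sets of the oocyte, the cumulus, granulosa and theca, and the blood, stromal and endothelial marker lists. Probe set 1455389_s_at is high on untreated 1 and 2, and the cumulus, granulosa and theca sum is 19938 to 86624 on the untreated and 2861 to 3816 on the milrinone arrays.

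Ago1 rested on 1 probe set, and no Ago4 probe set could be tested. The single Ago1 probe set, 1434331_at, had 587, 253, 270 and 224 in untreated samples and 269, 243 and 188 on milrinone 1 to 3, and was empty on milrinone 4. Untreated 1 stood alone above the rest. The difference, with the empty array left out of the fit, was -0.40 (-1.09 to 0.30, limma adjusted p = 0.652) and was -0.10 without untreated 1. Of the 2 Ago4 probe sets, which share a cDNA accession, 1 was empty throughout. The other had 31.2, 22.1 and 18.7 on untreated 1, 2 and 4 and 23.2 and 21.9 on milrinone 3 and 4, near the low end of the listed values, and was not tested.

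A list of 52 further genes of microRNA processing, small RNA loading and silencing was set beside the 9. Of these, 47 had a probe set with that single symbol and 41 could be tested, by 84 probe sets. None of the 84 passed (limma adjusted p, 0 higher and 0 lower, background 0.117%), and 9 had an unadjusted p under 0.05 (background 9.63%), of which 8 were lower (background 4%). Dhx9 and Ran each gave more than 1 of these 8, and probe sets of 1 gene are not independent of each other. The groups did not overlap in 3 higher (background 5.06%) and 3 lower (background 2.74%) probe sets. Their median difference was -0.07, beside 0.06 over all tested probe sets. It was 0.10 when the arrays were centred on ribosomal proteins and -0.29 with quantile normalization, where all tested probe sets gave 0.23 and -0.13. Taking for every gene its brightest tested probe set, 15 of 41 genes lay above 0 and 26 below, and 35 had an interval inside a 2-fold change. Of all tested probe sets, 62% lay above 0 and 14718 of 16288 had such an interval. On these brightest probe sets, 1 gene was higher and 4 were lower at a limma unadjusted p under 0.05. The backgrounds over all tested probe sets were 5.62% and 4%.

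The pathway gene with the smallest p was Dhx9, an RNA helicase that binds double-stranded RNA and is known to help load small RNAs. Its probe set 1451770_s_at had 1132, 821, 818 and 652 in untreated and 385, 391, 381 and 447 in milrinone samples. All 4 milrinone values lay below all 4 untreated values, with a difference of -1.04 (SE 0.18, 95% interval -1.43 to -0.65). It missed the threshold narrowly (limma adjusted p = 0.0714) but passed without untreated 1 (adjusted p = 0.0356), without untreated 4 (0.0369) and with array weights (0.00225), over a range of 0.00225 to 0.326. A dimmer Dhx9 probe set, 1425617_at, had 273, 236, 195 and 171 against 127, 120, 116 and 141, again without overlap (difference -0.71, adjusted p = 0.291, and 0.0490 with array weights). Untreated 1 was the highest array of both.

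The next 5 genes by p did not pass, with adjusted p from 0.456 to 0.514 (limma). Fkbp4, a co-chaperone of the HSP90 machinery that loads Argonautes, had 760 on untreated 1, while the remaining untreated arrays held 171 to 265 and the milrinone arrays 97.7 to 145, a difference of -1.27 that was -0.83 without untreated 1. Ncbp1, the large cap-binding subunit, differed by -0.67, or -0.37 without untreated 1. Fxr2, of the fragile X protein family, differed by -0.35, or by -0.19 with ribosomal protein centring and -0.58 with quantile normalization. Ilf2, a double-stranded RNA-binding complex subunit, differed by 0.35 on its brightest probe set, or by 0.10 with quantile normalization. The other tested Ilf2 probe set, 1417949_at, went the other way, with overlapping groups and a difference of -0.16 (limma adjusted p = 0.758). Ran, the small GTPase that drives Xpo5, differed by -0.50 on its brightest probe set, with values of 8364, 6268, 4824 and 4239 in untreated and 3546, 3148, 4163 and 5811 in milrinone samples. Without untreated 1 its difference was -0.31, and with ribosomal protein centring -0.33. That probe set is of the class that can bind related sequences. Every other tested Ran probe set also lay below 0 without passing. Among them 1460551_at, not of that class, differed by -0.96 (limma adjusted p = 0.495), or -0.61 without untreated 1, with overlapping groups. The remaining tested ones, all of that class, differed by -0.54, -0.45 and -0.47.

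Of the pathway probe sets that could not be tested, 27 had a value on at least 1 array. Of these, 19 were listed on more untreated than milrinone arrays (70.4%, where 60.8% of all 12772 such probe sets were). Listed on more milrinone arrays were 3 (11.1%, where 26.1% of all such probe sets were). From the 19, Prkra, the other double-stranded RNA-binding partner of Dicer1, was chosen for mention after its values were seen. Its brighter probe set had 402, 119, 153 and 99.4 in untreated samples and was listed on 1 milrinone array, at 87.7. For Tut4, a uridylyltransferase of precursor microRNAs chosen in the same way, the brightest probe set had 397, 114, 79.6 and 107 in untreated samples and 38.5 and 32.6 on 2 milrinone arrays. Both were highest on untreated 1 and neither was tested.

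**Figure D4:**
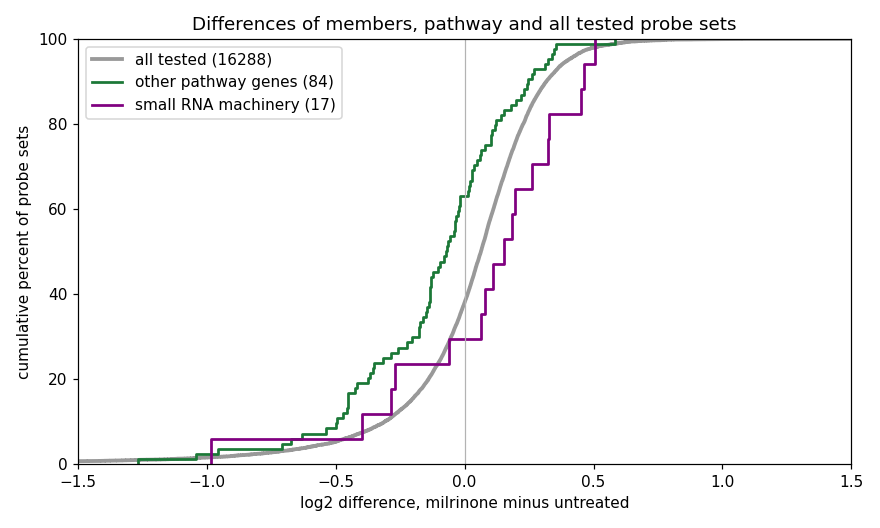
Cumulative percent of probe sets (vertical axis) at or below each log2 difference (milrinone minus untreated, horizontal axis), for the 17 tested probe sets of the 9 genes, the 84 of the further pathway genes and all 16288; the few differences beyond the axis limits are not shown. The medians lie at 0.15, -0.07 and 0.06.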

How the data were processed

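The members and gene lists were chosen with earlier results of these data known. The deposited values are linear intensity per probe set, and what software, scaling and rule for empty cells the authors used is not given in the sources used here. Symbols come from the platform annotation (34945 of 45037 non-control probe sets had 1 symbol, 932 several), updated through Entrez identifiers to RefSeq for 34741. Intensities were analysed as log2(intensity + 16) with the deposited scaling, empty cells left out. The fit took probe sets with values on 3 or more arrays per group and used limma 3.58.1 (R 4.3.3) with lmFit and trended eBayes, two-sided p-values, Benjamini-Hochberg adjustment over all 16288 and a threshold of 0.05. Between 48.4% and 58.7% of the cells of an array were empty, and the number of arrays limits the precision (median SE 0.17). Equal cRNA mass makes levels relative. Named by rule are all members, the 6 tested pathway genes with the smallest p on their brightest tested probe set, and Pde3a, Gdf9 and Zp3. Named besides are the Actb and Gapdh controls and, as the marker genes empty on every array, Amh and Pecam1. Chosen after values were seen were the markers Inha and Kdr, Prkra, Tut4 and the 5 genes of the closing observations. Promoter windows and plots used Python 3.11.15 and matplotlib 3.10.9. Alternatives covered pseudocount, scaling, listing rule, empty cells, trend, array weights, a replicate block and leaving out arrays.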

Additional observations from a re-analysis of the deposited data

Results flagged for a closer look

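In 30 groups of 4 listed values from the member probe sets, 3 held an array far from the other 3, where chance gives about 1 in 20 groups, or 1.5. The gap to the nearest array, as a share of the group's range, was 0.873 for milrinone 3, the highest for Ago3 probe set 1441089_at. It was 0.932 for untreated 1, the lowest for Tarbp2 probe set 1423616_at, and 0.884 for milrinone 4, the lowest for Xpo5 probe set 1451468_s_at.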

How the results depend on the processing

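No member probe set passed under any of the 20 alternatives, of which the one without both untreated 1 and milrinone 3 was chosen after seeing the data. Over all tested probe sets the 19 calls became 53 with ribosomal protein centring, 12 with listing on all 8 arrays (fewer tested), 7 with empty cells at the lowest listed value, 106 with array weights, 51 without untreated 1 and milrinone 3, and 8 (without milrinone 3) to 69 (without untreated 1) with 1 array left out. The pathway list gave 2 with array weights and 0 to 1 with 1 array left out. Signs turned with quantile normalization for Dgcr8 1435439_at (-0.13), Drosha 1438505_s_at (-0.0025) and 1428656_at (-0.12), Tarbp2 1438952_x_at (-0.0055) and 1423616_at (-0.020), and Xpo5 1451468_s_at (-0.17) and 1428560_at (-0.081). They also turned for Dicer1 1427941_at with ribosomal protein centring (0.11), for Xpo5 1428560_at with array weights (-0.014), and without untreated 1 and milrinone 3 for Ago1 (0.039), Dgcr8 1435439_at (-0.10) and Xpo5 1451468_s_at (-0.015). Leaving out 1 array gave -0.54 to -0.10 for Ago1, -0.07 to 0.20 for Dgcr8 1435439_at, -0.01 to 0.17 for Xpo5 1451468_s_at and -0.14 to 0.48 for Xpo5 1428560_at. With empty cells at the lowest listed value, the probe sets with 1 empty array differed by -1.29 (Ago1), 1.63 (Tarbp2 1438952_x_at), 1.26 (Ago3 1441063_at) and 0.97 (Ago3 1435904_at), again without passing. The cause of the other shifts was not tested. The replicate numbers are not stated to pair the arrays. Same-numbered deviations correlated at 0.03, -0.20, -0.02 and -0.27, and differently numbered ones at -0.18 to 0.28. With so few arrays these values cannot decide whether the numbers mark pairs. A replicate block gave 13 calls over all probe sets and 0 among members. Empty cells and 4 arrays per group limit what could be detected.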

Other observations

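A set of 5 genes known as sources or targets of oocyte endogenous small interfering RNAs was looked at after the other results were seen, and it therefore has no test as a set. Ppp4r1, a regulatory subunit of protein phosphatase 4, had 706, 691, 576 and 340 in untreated and 388, 269, 307 and 478 in milrinone samples, a difference of -0.64 that did not pass (limma adjusted p = 0.495). The groups overlapped, and untreated 4 lay inside the milrinone range. Kif4, a kinesin motor gene, differed by 0.05 (95% interval -0.24 to 0.34), and both listed probe sets of Pdzd11, at 0.02 and 0.04, overlapped as well. Hdac1, a histone deacetylase gene, had 663 on untreated 1, while the remaining untreated arrays held 176 to 292 and the milrinone arrays 139 to 271 (difference -0.64, limma adjusted p = 0.560). Rangap1, the activator of the Ran GTPase, was not tested. One of its probe sets was listed at 94.3 to 196 on the 4 untreated arrays and at 126 and 126 on 2 milrinone arrays, another at 232 and 180.5 on untreated 1 and 3 alone, and the remaining one was empty throughout.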
